A study of Homo sapiens with 12 samples.

Results

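The antisense noncoding RNAs that HCT-116 colon cancer cells express at a clear level were followed through DNA damage with CPT-11, alone or together with lovastatin or with silencing of the phosphatase SHP2. The deposited table holds 59172 features, of which 5583 carry the biotype antisense. The 219 of these with a mean of at least 2 FPKM over the 12 libraries (3.92%) are described here. FPKM is the number of reads of a feature per length and sequencing depth, which puts features of unequal length on a common scale. How reads on bases shared with other genes were counted is not given. Levels of features that share exon bases may therefore be understated, and comparisons of level between features carry this limit. HCT-116 is an established human line from a colorectal carcinoma. It was sequenced in 4 groups of 3 libraries: untreated wild-type cells, wild-type cells given CPT-11 for 24 h, wild-type cells given lovastatin for 4 h and then CPT-11 for 24 h, and SHP2-silenced cells given CPT-11. CPT-11 (irinotecan) traps topoisomerase I on DNA and causes strand breaks, lovastatin blocks the rate-limiting step of cholesterol synthesis, and SHP2 is encoded by PTPN11. No group holds silenced cells without CPT-11 or cells with lovastatin alone, so no effect of either without CPT-11 can be read. The SHP2-silenced libraries are named for a short hairpin RNA (shSHP2) in their titles. Their treatment label also names lovastatin, which the titles do not, and they were grouped by title. No group holds a control hairpin, so effects of the hairpin itself and of the loss of SHP2 cannot be told apart.

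Natural antisense RNAs are transcribed from the strand opposite to a gene, often within an intron, across its end, or outwards from the same promoter. Some are spliced and polyadenylated and have known functions, as for ZFAS1, but many are short-lived products that the nuclear RNA exosome degrades. In a library made without keeping the strand, a read from an antisense RNA looks like a read from the sense gene at the same bases, and unspliced sense RNA can give reads inside an intronic antisense gene. The kit named in the labels, NEBNext Ultra, is not named as its directional version, and the counting option for strand is not given in the sources used here.

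By position, 192 of the 219 RNAs overlapped a gene on the other strand. In 110 the whole antisense gene lay inside the sense gene, in 38 the ends of both genes overlapped, in 37 the starts overlapped, and in 7 the sense gene lay inside the antisense one. Another 13 started within 1000 bases of a sense gene's start without overlap, and MAFA-AS1 was paired by its name. The label did not hold by position for the other 13, which had no sense partner. In all, 40 of the 219 overlapped a gene on their own strand. Of the 13 without a partner, 6 did so, such as AC025423.1, whose 2 exons are inside MDM2 on the same strand. The sense partners were 198 distinct genes, and 141 of the 206 paired RNAs had a lower mean level in FPKM than their partner. Exon sequence of the antisense RNAs lay largely in introns of other genes, with a median of 67.8% of bases, and 61 RNAs lay in introns with every exon base.

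The counts were compared with the overlap of exons between strands. Of the 5583 antisense features, 324 have all their exon bases inside exons of opposite-strand genes. Of these, 0 had a read in any library. Among the 2451 with no such overlap, 1934 (78.9%) had a read. None of the 324 is therefore among the 219 RNAs. How reads on shared bases were counted is not given and may by itself fix the 0, so no rate is drawn from it. Features inside introns did have reads. At the limit itself, the nearest RNAs above it were AC090673.1 (2.04 FPKM), AC125616.1 (2.02), AC010531.5 (2.01) and AC087741.1 (2.01). Just under it were SH3BP5-AS1 (1.99), PRKCZ-AS1 (1.99), AC106037.2 (1.98) and AC092123.1 (1.98).

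**Figure D1:**
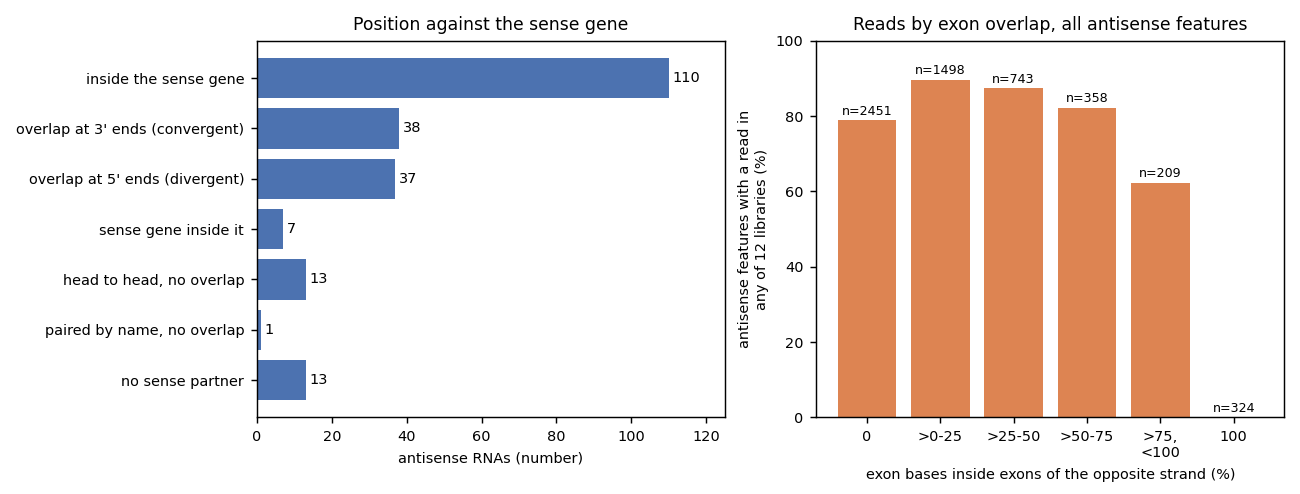
Left, number of the 219 antisense RNAs by position against the sense gene; right, percentage of all 5583 antisense features with a read in any of the 12 libraries (bars), by the percentage of their exon bases inside exons of the opposite strand, with the number of features above each bar. The bar at complete overlap is 0 of 324 features, against 78.9% of the 2451 features without overlap.

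The 12 libraries held 14447847 to 16224271 reads assigned to features, and the 219 RNAs took 0.167% to 0.183% of them. No label states whether a group's libraries came from separate cultures. The spread that the p-values rest on may therefore be technical. PTPN11 was at 6.01, 6.54 and 7.15 FPKM in the silenced libraries and between 43.2 and 55.4 FPKM in the other 9. HMGCS1, a cholesterol synthesis gene that statins raise, was at 104.9, 100.96 and 102.6 FPKM in the lovastatin libraries and 24.9 to 25.8 FPKM in the silenced ones. Markers of colon epithelium and of HCT-116 summed to 873 to 1270 FPKM per library, and the 10 markers of other cell types to 5.04 to 6.71 FPKM, with 0 of the 10 at 0 reads in all libraries. CPT-11 replicate 3 stood apart. Its log2 expression correlated with CPT-11 replicates 1 and 2 at 0.977 to 0.982, below the 0.992 between those replicates, and with the lovastatin libraries at 0.992 to 0.993. In 149 of the 219 antisense RNAs its value was nearer to the lovastatin mean than to the other CPT-11 libraries, against 73 for replicate 1 and 68 for replicate 2. Its RN7SL2, the RNA of the signal recognition particle, was at 400.2 FPKM, against 37.2 and 17.6 in CPT-11 replicates 1 and 2, 71.1 to 154.5 in untreated, 226.6 to 346.4 in lovastatin and 1065 to 1469 in silenced libraries. Main counts that use the CPT-11 group are therefore given with and without it.

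Levels were modest. The median of the 12-library means was 3.19 FPKM, 51 RNAs reached 5 FPKM and 17 reached 10 FPKM. The highest was AL365181.3, a single-exon RNA inside BCAN, with a mean of 29.97 FPKM and all libraries between 26.5 and 32.9. BCAN, which encodes a brain extracellular matrix protein, was itself at 1.98 to 2.90 FPKM, so the antisense level lay above the sense level in every library. AC099850.3, inside the cell-cycle gene PRR11, followed with 29.3 FPKM, and AC005288.1, which overlaps the end of the Mediator subunit gene MED1, with 22.2 FPKM. FGD5-AS1 averaged 19.9 FPKM while its sense gene FGD5, an endothelial gene, stayed at 0 to 0.0538 FPKM. AL513165.1 (18.7 FPKM, no sense partner), AP003392.1 (15.8, inside CCDC84), ZFAS1 (15.3) and AL590666.2 (14.5, also at BCAN) completed the 8 highest. ZFAS1, a small nucleolar RNA host gene, was between 13.7 and 17.8 FPKM in all libraries, and the groups overlapped. Of 53 known antisense RNAs from a list that are in the table, 6 both carried the biotype antisense and reached the limit. These were ZFAS1, FGD5-AS1, HOXB-AS3, THAP9-AS1, PSMA3-AS1 and LOXL1-AS1. The others are left out by biotype or by level, so some of them may lie above 2 FPKM.

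CPT-11 raised a small set of antisense RNAs strongly, and several of these lay in genes of the p53 response, the programme that halts the cell cycle and repairs DNA after strand breaks. Changes were tested with limma on log2(FPKM + 1), adjusted over all 18047 features with enough reads, which included 218 of the 219 RNAs. AP001458.1, a feature of 92 bases in EML3 with 1 to 11 reads per library, was not tested. Against untreated cells, 19 rose and 18 fell, together 16.97% of those tested, against 16.6% of all features (8.85% higher and 7.72% lower), so the share was near the background. The libraries of both groups did not overlap in 61 of the 218, against 29.4% of all features. With libraries scaled to equal totals the split was 24 and 12, for which the share of all features is not given here. Without CPT-11 replicate 3 it was 22 and 20, against 24.5% of all features, and 30 RNAs passed both ways. The median change was -0.05 on the log2 scale for the antisense RNAs and -0.01 for all features. Of the 37 RNAs that passed, 8 had group means at least 2-fold apart, and 12 were under 2 FPKM in 1 or more groups, which reach the list partly through the groups where they are high.

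**Figure D2:**
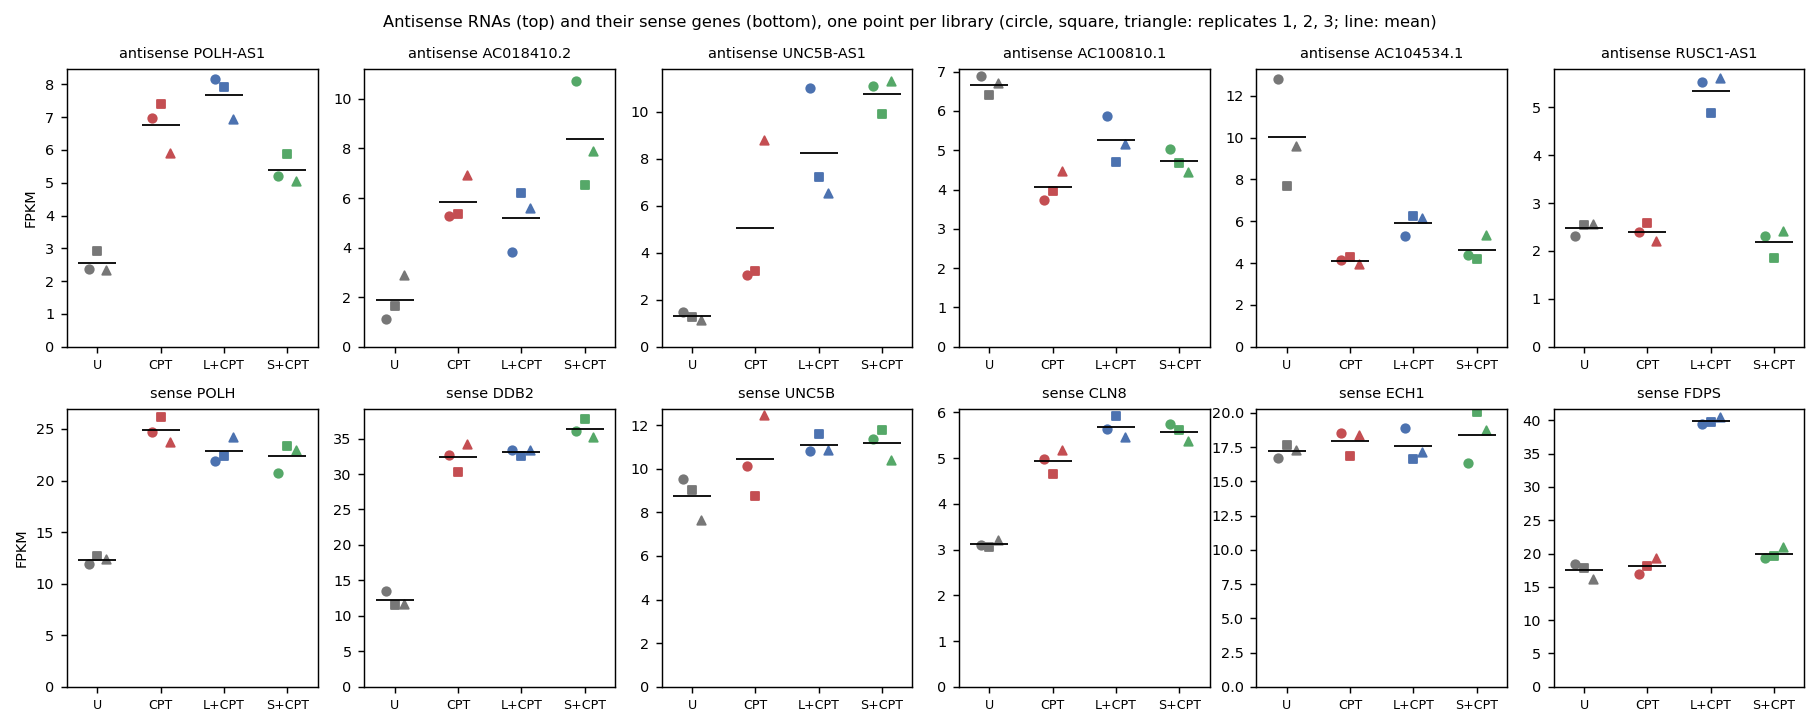
FPKM of 6 antisense RNAs (top row) and of the sense gene at the same place (bottom row), 1 point per library in untreated cells (U), CPT-11 (CPT), lovastatin and CPT-11 (L+CPT) and SHP2-silenced with CPT-11 (S+CPT); lines are means of 3. POLH-AS1 and AC018410.2 rose with POLH and DDB2, AC100810.1 fell while CLN8 rose, AC104534.1 was lower in all CPT-11 libraries than in untreated ones, and RUSC1-AS1 and FDPS were high in the lovastatin libraries.

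Among the rises, 3 lay in introns of p53 target genes that themselves rose. POLH-AS1 lies within POLH, the gene of the DNA polymerase that copies past ultraviolet lesions, AC018410.2 within DDB2, which recognises such lesions, and AC025423.1 within MDM2, the ligase that degrades p53.

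POLH-AS1 was at 2.37, 2.93 and 2.33 FPKM in untreated cells and 6.98, 7.39 and 5.92 with CPT-11. Its groups did not overlap, and it rose by 1.13 ± 0.10 (adjusted p = 2.4e-05). POLH went from 11.9, 12.7 and 12.3 FPKM to 24.7, 26.2 and 23.7, a rise of 0.96 ± 0.06 (adjusted p = 2.9e-06). AC018410.2 was at 1.13, 1.65 and 2.89 FPKM and then 5.26, 5.36 and 6.93, a rise of 1.28 ± 0.23 (adjusted p = 0.0034). DDB2, from 13.6, 11.6 and 11.7 FPKM to 32.6, 30.2 and 34.2, rose by 1.33 ± 0.07. The intronic RNA and its host thus both rose in both places. These changes are on log2(FPKM + 1), which shrinks that of the lower partner more, so their sizes do not compare directly. The antisense to sense ratio passed in neither place, which does not show equal change. AC025423.1 rose from 1.66, 1.01 and 2.90 FPKM to 6.77, 4.72 and 5.82 (1.29 ± 0.21, adjusted p = 0.0018), on 6 to 46 reads per library. MDM2 rose by 1.54 ± 0.11, with 18.3, 20.6 and 21.4 FPKM before and 67.5, 65.9 and 49.4 after. Over the 12 libraries the protein-coding genes that followed AC025423.1 most closely were SH2D2A (Pearson r = 0.950), ANKRD33B (0.946) and MUC16 (0.943), as a description of libraries in 4 groups. Group means were 0.694 to 1.89 FPKM for SH2D2A, 3.36 to 6.53 for ANKRD33B and 0.0092 to 0.0326 for MUC16. MUC16 was thus near the floor. All exon bases of POLH-AS1, AC018410.2 and AC025423.1 are in introns of the host, so their reads and reads of unspliced host RNA cannot be told apart.

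The host DDB2 carries the p53 motif close to its start. Windows of the hosts POLH and MDM2 are not given. That of DDB2 is shown because it holds the match, so the match is no test of p53 control at these places. The window runs from 250 bases before to 50 bases after the start (chr11:47214724-47215023, plus strand, RefSeq on GRCh38.p14), with p53 half-sites in capitals.
DDB2: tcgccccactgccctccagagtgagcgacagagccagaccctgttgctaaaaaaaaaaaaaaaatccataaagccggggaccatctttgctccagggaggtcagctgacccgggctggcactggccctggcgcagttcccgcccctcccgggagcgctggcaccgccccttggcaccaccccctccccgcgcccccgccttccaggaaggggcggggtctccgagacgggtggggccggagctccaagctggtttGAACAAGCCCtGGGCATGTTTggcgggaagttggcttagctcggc
The half-sites start at positions 256 and 267 of the window and are 1 base apart. On either strand, 6.63% of 35116 promoter windows hold a half-site, and 10 windows (0.0285%) hold a pair at most 13 bases apart. Among the antisense RNAs, 48 matched 57 windows, of which 5 held a half-site (GABPB1-AS1, HOXB-AS4, PSMA3-AS1, RUSC1-AS1 and ZFAS1) and 0 held such a pair. A match of letters is not a binding site, and no match says only that these letters are not in the window.

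Over the list of p53 targets, 38 of 48 tested genes rose with CPT-11 and 1 fell, with a median log2 change of 0.95 (38 and 2 without CPT-11 replicate 3). Of the 219 RNAs, 7 had a sense gene on that list, and 3 of the 7 rose: POLH-AS1, AC018410.2 and TNFRSF10A-AS1, whose sense gene encodes a death receptor. TNFRSF10A-AS1 went from 6.72, 7.03 and 7.34 FPKM to 10.6, 9.85 and 9.86 (0.47 ± 0.10, adjusted p = 0.011), and TNFRSF10A rose by 0.82. The other 4, ABALON and AL117381.1 at BCL2L1, AC024941.2 at KITLG and AC004264.1 at LIF, had log2 changes of -0.03, -0.16, -0.44 and -0.45 that did not pass. Outside the list, 2 RNAs at ALDH1A3, a retinoic acid synthesis gene, rose beside it. AC015712.2 was at 1.04, 1.46 and 1.03 FPKM before and 2.13, 2.15 and 2.29 after (0.56 ± 0.09, adjusted p = 0.0017). AC015712.7 rose by 0.68 ± 0.18 (adjusted p = 0.028, up to 0.099 without 1 library, where 2 of 12 removals ended the call), and ALDH1A3 by 0.92 ± 0.05.

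UNC5B-AS1 rose with a value that CPT-11 replicate 3 raised. It lies inside UNC5B, a netrin receptor gene, and all of its exon bases are intronic there. Its first exon junction is shown because it sets the annotated spliced RNA apart from the host's intron. Reads across the junction were not counted. Reads of UNC5B-AS1 and of unspliced UNC5B therefore cannot be told apart in the values below. The line gives 50 bases before the junction in lower case and 50 bases after it in capitals, 5′ to 3′, from the GENCODE release 29 transcript, and the joined bases are at chr10 71217994 and 71217635 (GRCh38, minus strand).
UNC5B-AS1: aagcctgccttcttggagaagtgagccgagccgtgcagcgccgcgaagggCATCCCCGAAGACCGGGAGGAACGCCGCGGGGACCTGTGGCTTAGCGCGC
It was at 1.47, 1.25 and 1.15 FPKM in untreated cells and at 3.06, 3.23 and 8.80 with CPT-11, where replicate 3 was the high one. With lovastatin and CPT-11 it was at 10.999, 7.21 and 6.52, and in silenced cells at 11.1, 9.89 and 11.3. The rise with CPT-11 was 1.27 ± 0.29 (adjusted p = 0.011) and 0.86 without replicate 3 (adjusted p = 0.0038). UNC5B moved from 9.51, 9.02 and 7.66 FPKM to 10.2, 8.73 and 12.5, and its change of 0.23 did not pass (adjusted p = 0.20). The antisense to sense ratio did not pass (adjusted p = 0.052, and 0.075 without replicate 3).

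Among the falls, AC104534.1 and AC100810.1 changed against their sense genes. AC104534.1 lies in introns of ECH1, an enzyme of fatty acid breakdown, and was at 12.8, 7.69 and 9.58 FPKM in untreated cells and 4.14, 4.27 and 3.95 with CPT-11. It fell by 1.08 ± 0.14 on the log2 scale (adjusted p = 4.8e-04), while ECH1 was at 16.7 to 17.7 FPKM before and 16.9 to 18.5 after. Its ratio to ECH1 fell by 1.29 ± 0.25 (adjusted p = 0.030, but 0.069 without CPT-11 replicate 3). AC100810.1, inside CLN8, a gene of endoplasmic reticulum transport, was at 6.90, 6.39 and 6.71 FPKM and then 3.74, 3.95 and 4.48. Its log2 change was -0.60 ± 0.09 (adjusted p = 7.4e-04), and CLN8 rose from 3.11, 3.05 and 3.22 FPKM to 4.99, 4.66 and 5.18 (0.52 ± 0.06, adjusted p = 2.5e-04). The ratio fell by 1.35 ± 0.20 (adjusted p = 0.0024, 0.0077 without replicate 3). All exon bases of AC100810.1 are intronic, and it moved opposite to the level of its host gene. That level does not measure unspliced host RNA. For AC100810.1, as for AC104534.1, reads of the RNA and of unspliced host RNA cannot be told apart.

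The next falls in size were MHENCR (-0.65), AC139887.2 (-0.59), SNHG10 (-0.56) and AL365277.1 (-0.56). AC139887.2 was at 4.82, 4.57 and 3.70 FPKM and then 2.31, 2.53 and 2.84, while PCGF3, a Polycomb group gene, rose by 0.19 ± 0.05 (adjusted p = 0.025). AL365277.1, in the poly(A)-binding protein gene PABPC4, fell from 6.10, 4.80 and 5.25 FPKM to 2.60, 3.64 and 3.78, and PABPC4 fell by 0.31 on the log2 scale. The calls of MHENCR and SNHG10 ended without 1 library: adjusted p reached 0.12 for MHENCR without CPT-11 replicate 1 and 0.099 for SNHG10 without untreated replicate 1. For MHENCR each of CPT-11 replicates 1 and 2 and the 3 untreated libraries ended it, and for SNHG10 each of CPT-11 replicates 1 and 2 and untreated replicates 1 and 2. The calls of AC025423.1, AC018410.2, UNC5B-AS1, POLH-AS1, AC104534.1, AC100810.1, AC139887.2 and AL365277.1 held under each of the 12 removals of 1 library.

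Across 197 pairs in which both genes were tested, the antisense change with CPT-11 went with the sense change at a Pearson r of 0.45, and of 0.47 without CPT-11 replicate 3. This is a description over pairs that share libraries. In 126 of the 197 the signs were the same. Both genes passed in 15 pairs, of which 11 moved the same way and 4 opposite ways: AC100810.1 with CLN8, AC139887.2 with PCGF3, NOP14-AS1 with NOP14 and AC089983.1 with TXNRD1. With CPT-11 replicate 3 left out, both passed in 21 pairs, 17 the same way and 4 opposite. NOP14-AS1 rose by 0.34 as NOP14, a ribosome assembly gene, changed by -0.22. AC089983.1 rose by 0.44 as TXNRD1, thioredoxin reductase, changed by -0.17. Leaving out 1 library ended the call of NOP14-AS1 in 3 of 12 cases (adjusted p up to 0.095) and that of AC089983.1 in 9 of 12 (up to 0.13). By position, r was 0.47 over 107 RNAs inside the sense gene, 0.61 over 35 with overlapping starts, 0.40 over 34 with overlapping ends, 0.54 over 7 with the sense gene inside and -0.23 over 13 head to head without overlap. Without CPT-11 replicate 3 these were 0.49, 0.55, 0.51, 0.0018 and -0.16, so the value over 7 pairs rested on that library. The direct test of the antisense to sense ratio, adjusted over all 1082 antisense pairs in the table, passed in 0.647% of those and in 3 of the 197, among them AC100810.1 and AC104534.1. Fewer cells of a type and less RNA per cell cannot be told apart in these bulk libraries.

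**Figure D3:**
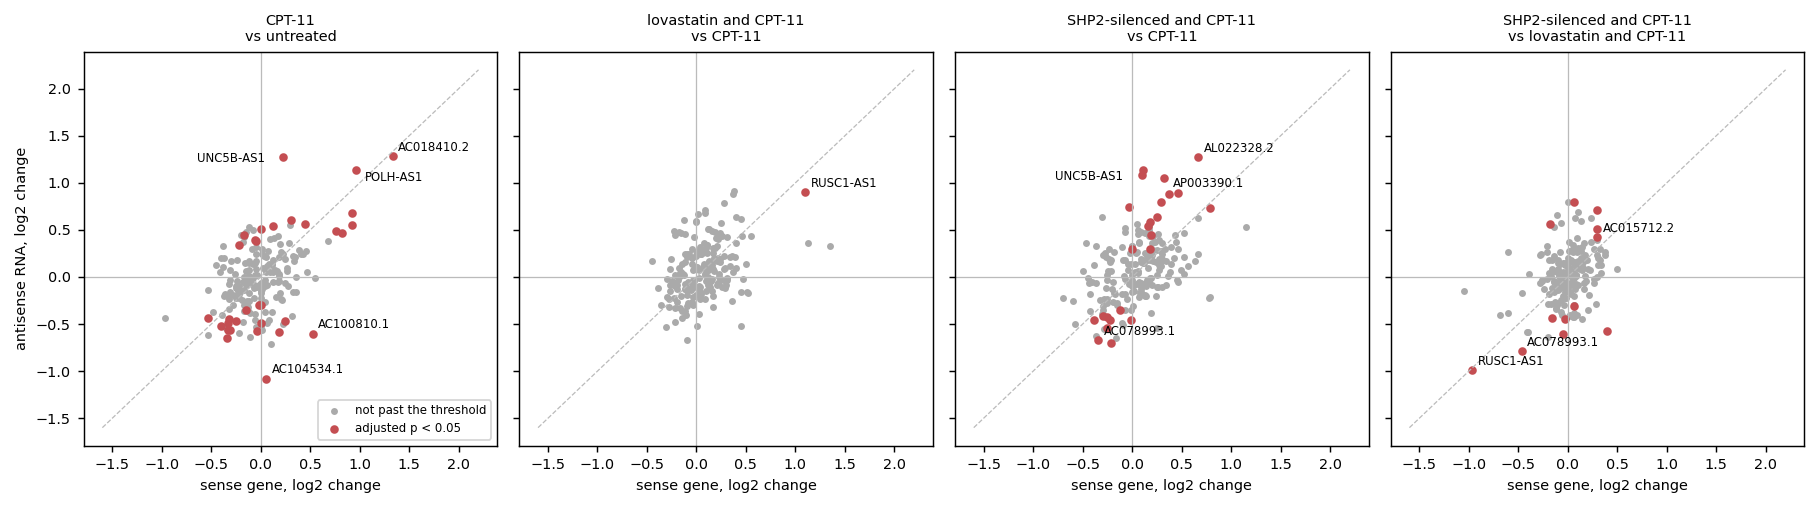
Log2 change of each antisense RNA (vertical) against that of its sense gene (horizontal) in the 4 comparisons, 1 point per pair with both genes tested (195 shown of 197); red points are antisense RNAs with adjusted p under 0.05, and the dashed line marks equal change. Changes are on log2(FPKM + 1), which shrinks that of the lower partner more, so distance from the line does not measure unequal change. With CPT-11, POLH-AS1 and AC018410.2 rose with their sense genes, and AC100810.1 fell where its sense gene rose.

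Lovastatin before CPT-11 changed 1 antisense RNA by the test, RUSC1-AS1, and it rose together with FDPS, the farnesyl diphosphate synthase of the cholesterol pathway whose end it overlaps. That is 1 of 218 (0.459%), against 0.465% of all features (0.393% higher). RUSC1-AS1 was at 2.41, 2.58 and 2.1997 FPKM with CPT-11 and 5.52, 4.88 and 5.601 with lovastatin and CPT-11. In untreated cells it was at 2.32, 2.55 and 2.56, and in silenced cells with CPT-11 at 2.30, 1.85 and 2.41. The 3 lovastatin libraries stood alone at the high level, with no overlap to any other group. The rise was 0.90 ± 0.09 (adjusted p = 4.0e-04, 7.1e-04 without CPT-11 replicate 3). FDPS rose by 1.10 ± 0.06, from 16.9, 18.2 and 19.3 FPKM to 39.5, 39.8 and 40.5. RUSC1, whose start it crosses on the other side, changed by 0.12 ± 0.09 and did not pass (adjusted p = 0.46). Of the exon bases of RUSC1-AS1, 31.0% lie in exons and 62.5% in introns of other genes. Reads of the RNA and of unspliced RNA of those genes cannot be told apart there. The first junction of RUSC1-AS1, in the same form as that of UNC5B-AS1, is at chr1 155321135 and 155319953 (minus strand). It is shown because this was the only antisense RNA that passed here.
RUSC1-AS1: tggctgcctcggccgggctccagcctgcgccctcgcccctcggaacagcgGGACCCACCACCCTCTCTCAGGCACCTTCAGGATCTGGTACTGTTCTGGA

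Of 44 tested genes of cholesterol and fatty acid synthesis, 29 rose with lovastatin and 0 fell (36 and 1 without CPT-11 replicate 3). Besides FDPS, 2 of them were sense partners. AP002387.1 lies wholly in introns of DHCR7, the last enzyme of cholesterol synthesis. DHCR7 rose by 1.35 ± 0.07, from 19.4, 20.4 and 24.2 FPKM to 56.5, 55.9 and 54.3. AP002387.1 was at 9.26, 7.69 and 5.86 FPKM with CPT-11 and 12.1, 7.95 and 9.47 with lovastatin, groups that overlapped, and its change of 0.33 ± 0.17 did not pass (adjusted p = 0.28). SREBF2-AS1, which starts across from the sterol regulator SREBF2, changed by 0.14 ± 0.09 and did not pass either (adjusted p = 0.35), beside a rise of SREBF2 by 0.50. The antisense to sense ratio passed by limma in 0 of 197 pairs, with 19 at an unadjusted p under 0.05 and 2 by voom. Shares of all pairs at the unadjusted threshold and by voom are not given here. The host change of 1.35 at DHCR7 stood beside 0.33 for its intronic antisense RNA, where POLH and POLH-AS1 had 0.96 and 1.13 with CPT-11. Sizes on log2(FPKM + 1) do not compare directly between partners of unequal level, and the difference between these places was not tested.

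The count for lovastatin rested on CPT-11 replicate 3. Without it, 41 antisense RNAs passed, 29 higher and 12 lower (18.8%, against 30.2% of all features, 15.9% higher). With all libraries, 43 of 218 were at an unadjusted limma p under 0.05. The share of all features at that threshold is not given here, so no excess among antisense RNAs can be read. AL022328.2, in the selenoprotein gene SELENOO, was at 0.772, 0.408 and 2.45 FPKM with CPT-11 and 3.92, 2.33 and 2.27 with lovastatin. Its change of 0.88 did not pass with all libraries (adjusted p = 0.19) and was 1.26 without replicate 3 (adjusted p = 0.0053). HOXB-AS3, in the HOXB cluster, was at 11.4, 9.67 and 18.4 FPKM with CPT-11, 16.5, 18.3 and 17.2 with lovastatin and 11.6, 11.1 and 10.8 in silenced cells. THAP9-AS1 was at 16.5, 16.1 and 11.4 FPKM with CPT-11 and 11.7, 11.6 and 11.4 with lovastatin. In each of these RNAs the third CPT-11 library lay with the lovastatin libraries and the other CPT-11 libraries did not. Whether that library or the other CPT-11 libraries represent the treatment cannot be told apart with 3 libraries.

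SHP2 silencing together with CPT-11 changed 28 antisense RNAs against CPT-11 alone, 17 higher and 11 lower. That is 12.8% of those tested, against 22% of all features. The libraries did not overlap in 64 of the 218, against 35.9% of all features, and in all of the 28. Without CPT-11 replicate 3 there were 62, 37 higher and 25 lower, against 43.5% of all features, and 26 of the 28 passed both ways. RN7SL2 moved with the same groups, by 4.24 ± 0.84 (adjusted p = 0.0088), and its part in these changes was not tested. Other single libraries moved the count downwards: it was 9 and 5 without CPT-11 replicates 1 and 2, and 8, 8 and 14 without silenced replicates 1, 2 and 3. The share of all features in these runs is not given here, so no drop particular to antisense RNAs can be read. AC078993.1 and AC024896.1 stood out because they were higher with CPT-11 than in untreated cells, and lower in silenced cells with CPT-11 than with CPT-11 alone. Their level in silenced cells without CPT-11 is not known. AC078993.1 overlaps the start of MAGEB17, a cancer-testis antigen gene, and runs into GRPR. It was at 4.25, 4.35 and 4.28 FPKM in untreated cells, 6.43, 7.18 and 5.70 with CPT-11, 6.08, 7.49 and 7.56 where lovastatin came first, and 3.81, 3.65 and 3.50 in silenced cells with CPT-11. The silenced libraries were the lowest of all 12. It rose by 0.49 ± 0.09 with CPT-11 (adjusted p = 0.0043) and fell by 0.67 ± 0.09 with silencing (adjusted p = 0.0014). MAGEB17 rose by 0.76 with CPT-11 and changed by -0.34 with silencing, which did not pass (adjusted p = 0.10). GRPR, a peptide receptor gene, fell with silencing by 0.57 ± 0.13 on the log2 scale (adjusted p = 0.016, 0.0070 without CPT-11 replicate 3). AC024896.1, at the end of the membrane protein gene TM7SF3, was at 5.94, 7.08 and 6.67 FPKM in untreated cells. It was at 10.7, 10.8 and 9.01 FPKM with CPT-11 and 7.69, 7.25 and 6.48 with silencing. Its fall of 0.45 ± 0.09 (adjusted p = 0.0076) came with a fall of TM7SF3 by 0.22 on the log2 scale. TM7SF3 was also higher with CPT-11, at 28.1, 29.2 and 28.1 FPKM against 20.4, 22.3 and 19.4 in untreated cells. Of the exon bases of AC024896.1, 58.4% lie in introns of TM7SF3, where its reads and those of unspliced TM7SF3 cannot be told apart. Because both comparisons use the CPT-11 libraries, their changes are not independent.

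FGD5-AS1, THAP9-AS1 and AC005288.1, all of them among the more abundant antisense RNAs, fell with silencing. FGD5-AS1 was at 22.1, 21.5 and 19.0 FPKM with CPT-11 and 13.9, 15.5 and 15.7 in silenced cells, groups that did not overlap (-0.45 ± 0.08, adjusted p = 0.0063). THAP9-AS1, which starts across from the transposase-derived gene THAP9, was at 10.02, 10.3 and 10.6 FPKM in silenced cells (-0.45 ± 0.11, adjusted p = 0.016). It also lies in SEC31A, a vesicle coat gene on its own strand, which fell by 0.44 ± 0.10 (adjusted p = 0.012), and 84.5% of its exon bases are in introns of other genes. Reads of the RNA and of unspliced SEC31A cannot be told apart there. AC005288.1 was at 27.3, 23.9 and 21.0 FPKM with CPT-11 and 16.0, 17.7 and 19.2 with silencing (-0.42 ± 0.10, adjusted p = 0.019), and MED1 fell by 0.25. AL513165.1 rose, from 13.03, 16.96 and 16.9 FPKM to 21.5, 21.1 and 22.04 (0.45 ± 0.09, adjusted p = 0.0083). FGD5-AS1, AL513165.1, AC078993.1 and AC024896.1 passed under each removal of 1 library. THAP9-AS1 did not without either of CPT-11 replicates 1 and 2 or silenced replicates 1 and 2 (adjusted p up to 0.072), nor AC005288.1 without the same libraries (up to 0.080).

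The largest rises with silencing were of RNAs at low levels. AL022328.2 reached 3.16, 5.09 and 3.77 FPKM in silenced cells (1.27 ± 0.31, adjusted p = 0.020), and SELENOO rose by 0.67. AC124283.2, in FOXK2, was at 2.14, 1.23 and 2.09 FPKM with CPT-11 and 5.34, 4.47 and 5.64 with silencing (1.14 ± 0.29, adjusted p = 0.022), on 3 to 29 reads per library. FOXK2, a forkhead factor gene, changed by 0.11 and did not pass. UNC5B-AS1 rose by 1.09 ± 0.29 (adjusted p = 0.024) and by 1.502 without CPT-11 replicate 3. AP003390.1, head to head with the adhesion gene NECTIN1, was at 1.06, 1.25 and 3.35 FPKM with CPT-11 and 4.87, 3.85 and 5.32 with silencing (1.05 ± 0.25, adjusted p = 0.017). MID1IP1-AS1 rose by 0.90, AC129510.1 by 0.88 and SNHG7 by 0.80. Next to AC078993.1, the largest falls were of AC120053.1 (-0.70, in FAM92A), AP001893.1 (-0.68, in RPUSD4 on its own strand), AC084036.1 (-0.54, in KCNAB1) and AL513327.1 (-0.45, at PHC2). The call of SNHG7 ended in 5 of 12 removals of 1 library (adjusted p up to 0.11). Leaving out CPT-11 replicate 1 or replicate 2 ended each of the other 10 calls, leaving out each of silenced replicates 1, 2 and 3 ended some of them, and adjusted p rose to at most 0.15. The call of AC084036.1 also ended without lovastatin replicates 1 or 2 or untreated replicates 2 or 3. Both genes of a pair passed in 11 of 197 pairs, all 11 in the same direction, and 59 sense genes passed in all. Leaving out CPT-11 replicate 3, both passed in 40 pairs, 38 the same way and 2 opposite, and 122 sense genes passed. The r between both changes was 0.44, and limma called the ratio in 0 of 197 pairs (0% of all 1082 pairs). At an unadjusted p under 0.05 there were 29, and 11 by voom, both without a share of all pairs beside them.

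Silenced cells and lovastatin-treated cells, both given CPT-11, differed in 13 antisense RNAs, 5 higher and 8 lower in silenced cells, 5.96% against 6.84% of all features (4.26% lower). Here the CPT-11 libraries enter only through the shared estimate of spread, and without replicate 3 the count was 21, against 13.6% of all features (5.6% higher and 8.01% lower), with all 13 among them. RUSC1-AS1 was lower in silenced cells by a log2 change of -0.99 ± 0.09 (adjusted p = 7.6e-05) and FDPS by -0.96 ± 0.06. AC078993.1 was lower by -0.79 ± 0.09 (adjusted p = 4.5e-04). AL359922.2, inside MTAP, a methionine salvage gene, was at 2.58, 2.44 and 2.71 FPKM in silenced cells and 1.18, 1.77 and 1.59 with lovastatin (0.51 ± 0.09, adjusted p = 0.0060), and MTAP differed by 0.30. AC083855.2, inside the histamine receptor gene HRH1, was at 3.61, 3.39 and 3.17 FPKM against 6.39, 4.56 and 6.21 (-0.60 ± 0.11, adjusted p = 0.0077), while HRH1 differed by -0.05 and did not pass. Each of these 4 RNAs passed under every removal of 1 library. AC015712.2 and AC015712.7 at ALDH1A3 were higher in silenced cells by 0.42 and 0.71, beside 0.30 for ALDH1A3. POLH-AS1 was lower by -0.44 (adjusted p = 0.022) where POLH differed by -0.03, and TNFRSF10A-AS1 was lower by -0.43 (adjusted p = 0.032). MID1IP1-AS1 (0.80), AC018690.1 (0.56), U62317.2 (-0.57) and FGD5-AS1 (-0.33) completed the named differences, and the calls of these 4 and of the preceding 4 ended without 1 or more single libraries (adjusted p up to 0.16). Each lovastatin and each silenced library ended 1 or more of these 8 calls, and a CPT-11 or untreated library also ended those of MID1IP1-AS1, AC018690.1, AC015712.7 and TNFRSF10A-AS1. The antisense to sense ratio passed by limma in 0 of 197 pairs (0.0924% of all pairs in each direction). At an unadjusted p under 0.05 there were 22, and 2 by voom, both without a share of all pairs beside them. The count of antisense RNAs was 4, 5 and 8 without lovastatin replicates 1, 2 and 3, and 4, 7 and 6 without silenced replicates 1, 2 and 3. For these runs too the share of all features is not given here.

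**Figure D4:**
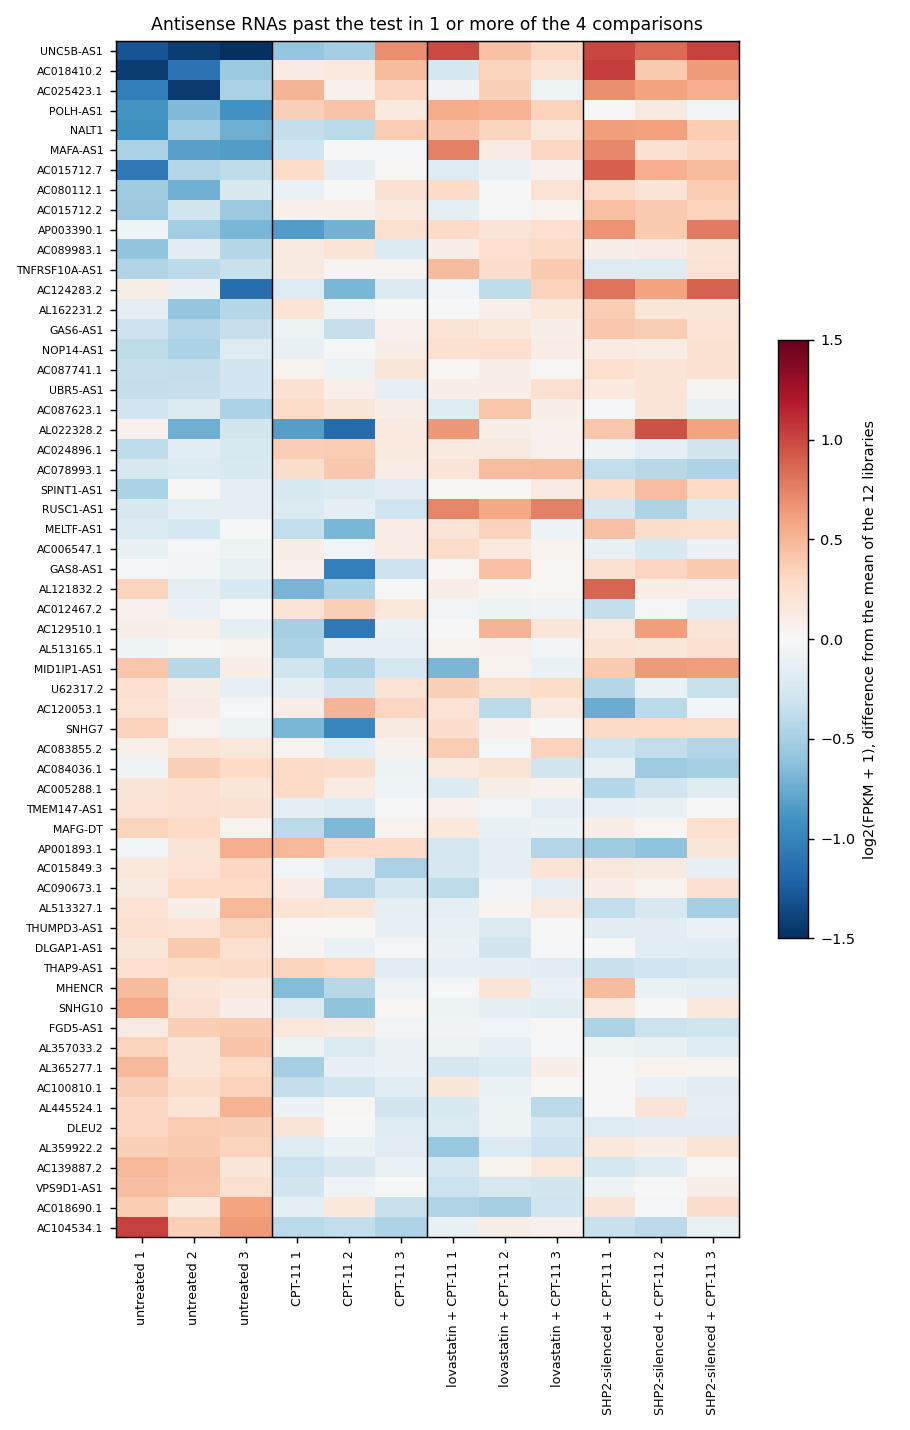
Antisense RNAs that passed in 1 or more of the 4 comparisons (rows, 60 shown of 62), in the 12 libraries (columns, vertical lines between groups); colour is log2(FPKM + 1) minus the mean of the row, red above and blue below, and rows are ordered by the difference between the libraries with CPT-11 and the untreated ones. RUSC1-AS1 is red only in the 3 lovastatin columns, and CPT-11 replicate 3 departs from replicates 1 and 2 in rows such as UNC5B-AS1, AL022328.2 and SNHG7.

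In all, 62 of the 219 RNAs passed in 1 or more of the 4 comparisons, against 34.9% of all features. Without CPT-11 replicate 3 there were 94, against 57.2% of all features, and 57 passed both ways. In the test with all libraries, 25 of the 62 were under 2 FPKM in 1 or more groups. A test over all 4 groups together passed for 75 of 218 (34.4%), against 40.7% of all features. Without CPT-11 replicate 3 it passed for 103, against 58% of all features. Genes that degrade or terminate antisense transcripts were read beside these counts. Of 25 tested genes of the nuclear RNA exosome and its adaptors, 1 rose and 2 fell with CPT-11, 0 passed with lovastatin by limma, and 1 rose and 6 fell with silencing against CPT-11. These were 4 and 3, 2 and 11, and 5 and 12 without CPT-11 replicate 3. Of 23 genes of the Integrator complex and of transcription termination, 0 rose and 2 fell with CPT-11 and 0 rose and 5 fell with silencing. Without replicate 3 these were 0 and 6, and 5 and 11. Of 15 genes of nonsense-mediated decay, 0 rose and 2 fell with CPT-11, and 0 rose and 4 fell with silencing, or 0 and 3, and 3 and 5, without replicate 3. Over all features, 16.6% passed with CPT-11 and 22% with silencing, and 24.5% and 43.5% without replicate 3. Their part in the antisense levels was not tested. The summed level of the 219 RNAs was 955 to 1062 FPKM in every library.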

How the data were processed

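RNA of HCT-116 cells in 12 libraries was analysed. The authors deposited 1 table of FPKM values, and hg19, DESeq2 1.16.1, featureCounts 1.5.0-p3, HISAT2 2.0.5 and StringTie 1.3.3b are listed in the submitters' processing notes. All 58735 Ensembl features nevertheless carry the coordinates of GENCODE release 29 (GRCh38), which are used here. Whole reads could be recovered from 100% of the nonzero FPKM values (within 0.01 of a read). Features entered the tests if 3 or more libraries had 10 reads or more at the depth of the median library, and all libraries together 15. limma 3.58.1 (R 4.3.3) was fitted to log2(FPKM + 1) of all 12 libraries with a mean per group and a variance trend, so fold changes understate those of low features. P-values were adjusted by Benjamini-Hochberg over 18047 features at 0.05. The antisense to sense ratio was tested by limma on log2(FPKM + 0.1) differences. The fit was tested on simulated data. Sense partners are the overlapping opposite-strand gene, protein-coding genes first and then by the largest overlap. Without overlap they are a protein-coding gene with its start within 1000 bases, else the gene in the name within 10000 bases. The RNAs, lists and named genes were chosen with earlier results of these data known. The text names the 8 highest RNAs, the 6 largest rises and falls past the test without overlap in each comparison, up to 3 with a listed sense gene, the known ones, the leading ratios, those at the limit, their sense genes and the 3 closest patterns. Genes named otherwise (AC015712.2 and AC015712.7 with CPT-11, TNFRSF10A-AS1, NOP14-AS1, AC089983.1, SNHG7, AC024896.1 and AC078993.1 with CPT-11, and the examples without CPT-11 replicate 3) were chosen after their values were seen. Alternatives were other pseudocounts and filters, equal library totals, voom on the recovered reads, only the groups compared, a replicate block and leaving out each library. Some results that the naming rule covers are not reported here.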

Additional observations from a re-analysis of the deposited data

How the results depend on the processing

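No direction of the 42 named calls reversed under any alternative run: of 798 alternative values 628 stayed past the threshold and 170 did not, and 112 of those 170 came from leaving out 1 library. Counts of antisense RNAs past the test are given here in the order CPT-11, silencing against CPT-11, silencing against lovastatin, and any group difference, from 37, 28, 13 and 75. Without the filter they were 21, 8, 5 and 49, at a limit of 1 FPKM 60, 54, 24 and 143, at 5 FPKM 14, 9, 4 and 28, and among RNAs overlapping no other feature 4, 3, 0 and 6. With only the groups compared the first 3 were 16, 5 and 22, and voom gave 8 for silencing against lovastatin. For lovastatin against CPT-11 the count was 1, and 2 at 1 FPKM, 0 at 5 FPKM and 0 without overlap. The limit and overlap settings test fewer or more RNAs by construction; the cause of the other differences was not tested. Leaving out 1 library gave 25 to 42, 5 to 62, 4 to 21 and 54 to 103, and 1 to 41 for lovastatin. Shares of all features under these settings are not given in this section, so no change particular to antisense RNAs can be read. For the antisense to sense ratio, 3 with CPT-11 became 13 with a pseudocount of 1, 1 without the filter, 5 with both genes at 1 FPKM, 12 with voom, 0 with only the groups compared and 2 to 4 without 1 library. Silencing against CPT-11 gave 0, then 5 with a pseudocount of 1, 11 with voom and 0 to 6 without 1 library. Silencing against lovastatin gave 0, then 2 with a pseudocount of 1 and 2 with voom, and lovastatin gave 0, then 2 with voom; without 1 library both gave 0 to 0. Titles number the libraries 1 to 3 in each group, but deviations from the group means of same-numbered libraries correlated at -0.39 to 0.18 (median 0.0036), so the numbers were not taken as pairs. With a replicate block the counts were 31, 19, 8 and 67, 1 for lovastatin and 2 for the ratio with CPT-11. Depth limits the weaker RNAs: the median RNA had 47.1 reads per library.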
